A study of Rattus norvegicus with 59 samples.

Results

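A ribosome is put together in the nucleolus, where RNA polymerase I copies the long precursor of the ribosomal RNAs. Small nucleolar ribonucleoproteins modify that precursor, a large processome cuts and folds the part that becomes the small subunit, and a second set of factors assembles the large subunit. Most of these factors leave before the subunits start to translate, so that their messages are read separately from those of the ribosomal proteins, and in liver they are known to rise when hepatocytes grow or regenerate. The values below follow 52 such genes in rat liver after a single injection of cadmium (Cd) or chromium (Cr).

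The 52 genes were chosen by symbol, and 51 of them had at least 1 probe set (a group of short probes for one transcript) whose annotation held a single gene symbol. Npm1, a nucleolar chaperone, was carried by probe sets with several symbols alone and is not described. The 51 members lay on 65 of the 31042 probe sets tested, 40 members with 1 probe set and 11 with up to 4, and 14217 genes were measured in this way on the array. Each member is read on its brightest probe set. By role, 3 members were core proteins of the box C/D small nucleolar ribonucleoproteins, 4 of the box H/ACA particles, 2 were nucleolar chaperones, 2 nucleolar regulators, 3 subunits of RNA polymerase I, 20 factors of small subunit assembly and 17 of large subunit assembly.

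Male Sprague-Dawley rats received saline vehicle, CdCl2 at 1.25 mg/kg or Na2Cr2O7 by 1 intraperitoneal injection, and whole liver was taken on day 1, 3 or 7. The labels give the Cr dose as 20 mg/kg. The methods name another dose in one place, but also state that the high dose of Cr, 20 mg/kg, was selected for the arrays. The ages of the animals are not given in the sources used here. Total RNA of 59 livers was hybridised to Affymetrix rat expression arrays, with 5 livers in each of the 12 groups of metal, day and exposure except the Cd exposed livers of day 1, of which there were 4. The controls of both metals received vehicle, and each exposed group was set against the controls of its own metal and day. Values are log2 signals, on which a difference of 1 is a doubling, and a change was called at a limma adjusted p up to 0.05, with the Benjamini-Hochberg adjustment run over the 31042 probe sets.

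No pair of arrays held identical values, and the mean correlation of a liver with its group was at least 0.986 in every group. The 9 hepatocyte markers measured, Alb and Apoa1 among them, were present in every liver, with a mean log2 signal of 13.1 to 13.4 in all 12 groups. In Cd exposed livers of day 1 all 8 Kupffer cell and macrophage markers measured fell, from 8.36 to 8.76 in the controls to 5.01 to 7.38, all 10 cycling cell markers fell, from 7.63 to 8.32 to 5.36 to 6.34, and 4 of 5 neutrophil markers rose, from 3.94 to 4.56 to 5.59 to 6.55. In Cr exposed livers of day 1, 0 of 8 Kupffer cell markers passed the limma test (0 also at an unadjusted p under 0.05), 2 of 10 cycling cell markers fell and the list mean was 6.38 to 7.83 against 7.88 to 8.20 in controls, and 2 of 5 neutrophil markers rose. Over all genes, 9.77% rose and 8.14% fell on day 1 after Cd, and 21.8% rose and 12.9% fell after Cr. These marker changes were read in the same livers as the results below, and their part in them was not tested. In whole liver, fewer cells of a type and less RNA per cell cannot be told apart.

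One day after Cr, 49 of the 51 members rose and 0 fell, against 21.8% of all 14217 genes that rose in that comparison and 12.9% that fell. The median difference between exposed and control livers was 0.82, or -0.01 over all genes, and 25 of the 49 rises were of 1.8-fold or more, which 1.57% of all probe sets reached. In 43 members every exposed liver lay above every control, a separation seen in 10.8% of all genes. The largest rises were those of Gar1, Wdr43, Nop56 and Nop58, and the 2 members that did not pass were Nop10 and Rcl1. Among the 8897 genes with a log2 signal of 6 or more in the mean of at least 1 group, 34.8% rose. With any 1 liver of these groups left out, the same 49 members were called each time.

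One day after Cd the changes of these genes were smaller. In that comparison 13 of the 51 members rose and 0 fell, against 9.77% of all genes that rose and 8.14% that fell, and the median difference was 0.25 against 0.0002 over all genes. At an unadjusted p under 0.05, 24 members were higher and 0 lower. The share of all genes at that cut-off is not given here, so this count is not read as a result. All 4 exposed livers lay above all 5 controls in 15 members, against 8.26% of all genes, and no member reached 1.8-fold, which 1.26% of all probe sets did. Among the genes of higher signal, defined as for Cr, 16.3% rose after Cd. The count was not steady. It ran from 4 without exposed liver 4 and 8 without exposed liver 1 to 14 without exposed liver 2, and 4 of the 13 calls (Fbl, Ebna1bp2, Wdr75 and Rcl1) stood in every leave-one-out fit. With livers of the same number taken as pairs the count was 14, with Dkc1 (0.30, limma adjusted p = 0.0255) and Utp20 (0.52, limma adjusted p = 0.00958) gained and Bysl (0.32, limma adjusted p = 0.0615) lost.

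**Figure D1:**
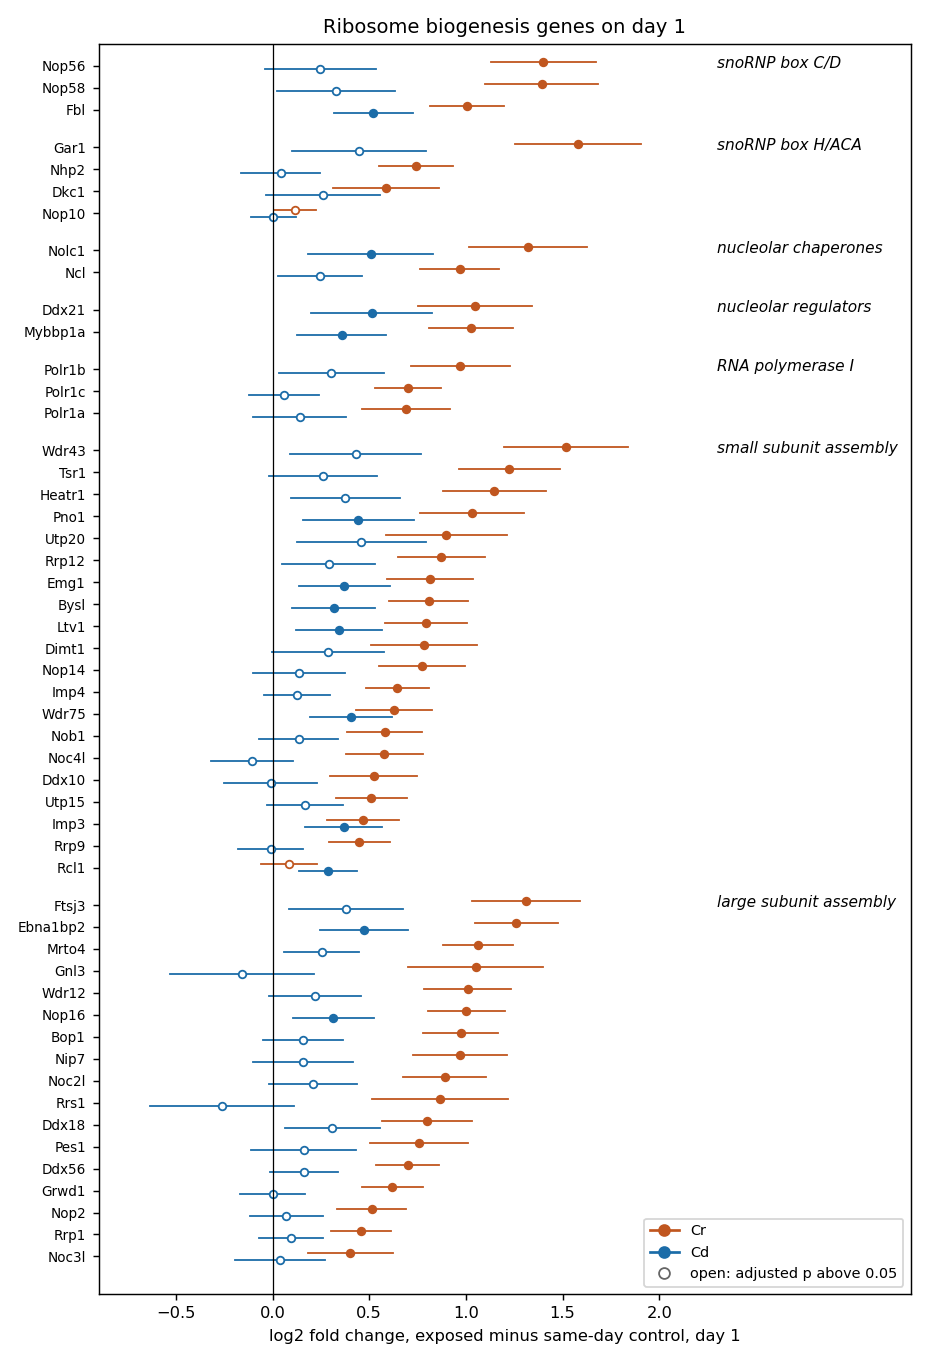
Log2 fold change of each of the 51 members on day 1 against same-day controls (x axis), grouped by role and ordered by the Cr value, with 95% intervals as lines, Cr in orange and Cd in blue. Filled points passed the test. 49 Cr points and 13 Cd points are filled, and the Cr point lies to the right of the Cd point in 50 of 51 members, Rcl1 being the exception.

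MYC is known to drive many ribosome biogenesis genes, as a dimer with MAX at the E-box, with the letters CACGTG. Promoter windows from RefSeq (rat build GRCr8), 250 bases before to 50 after a transcript start, were matched by symbol for 48 of the 51 members, in 50 windows. Rrs1, Bop1 and Wdr43 had none. The E-box, whose letters read the same on both strands, was found in 18 of the 50 windows (36%), against 6.42% of all 33469 windows and 9.49% of the 8279 windows of genes with a log2 signal of 6 or more in at least 1 group on this array. The other ribosome biogenesis genes held it in 27.5% of 91 windows and the ribosomal proteins in 8.11% of 37. The GC box GGGCGG, on either strand, was in 60% of member windows and 61.6% of windows of genes at that signal, and CCAAT in 30% and 38%. The 18 members with an E-box had a median Cr change of 0.80 on day 1 and a median Cd change of 0.30, and the 30 members with a window and no E-box 0.80 and 0.21. A match says only that these letters are in the window. The 100 bases before the start are shown for 3 members with an E-box there, for 3 without an E-box and with large rises after Cr, and for Nop10, which did not pass after Cr. Only windows that begin at the outermost start of the annotated gene were taken. All are 5′ to 3′ on the strand of the gene, with the E-box in capitals. Ltv1 (rise after Cr of 0.79) lies at chr1:9398558-9398657 on the minus strand, Pes1 (0.76) at chr14:83074246-83074345 on the plus strand, Rrp1 (0.46) at chr20:10260480-10260579 on the plus strand, Gar1 (1.58) at chr2:221056750-221056849 on the minus strand, Mrto4 (1.06) at chr5:156891739-156891838 on the minus strand, Ddx21 (1.05) at chr20:31097239-31097338 on the minus strand, and Nop10 (0.12, not past the test) at chr3:119521155-119521254 on the plus strand.
Ltv1: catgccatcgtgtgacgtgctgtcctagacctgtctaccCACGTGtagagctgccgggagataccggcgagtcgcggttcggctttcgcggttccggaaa
Pes1: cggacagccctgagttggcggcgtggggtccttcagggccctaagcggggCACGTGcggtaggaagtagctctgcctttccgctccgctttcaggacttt
Rrp1: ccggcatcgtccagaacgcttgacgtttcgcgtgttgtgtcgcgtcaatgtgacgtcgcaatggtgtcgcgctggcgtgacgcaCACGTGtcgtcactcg
Gar1: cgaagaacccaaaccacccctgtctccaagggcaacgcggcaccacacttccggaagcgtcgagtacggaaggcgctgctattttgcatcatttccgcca
Mrto4: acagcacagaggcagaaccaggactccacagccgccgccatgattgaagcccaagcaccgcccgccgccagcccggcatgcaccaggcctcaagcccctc
Ddx21: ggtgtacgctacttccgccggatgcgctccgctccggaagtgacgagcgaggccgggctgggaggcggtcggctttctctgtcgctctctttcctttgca
Nop10: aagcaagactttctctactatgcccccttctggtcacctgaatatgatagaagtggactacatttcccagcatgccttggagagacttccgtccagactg

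The box C/D particles, which guide the methylation of ribosomal RNA, gave the largest median of the roles after Cr, at 1.39 for 3 members. Nop56, a core scaffold protein of these particles, read 11.08, 10.42, 10.83, 11.06 and 10.08 in the Cr exposed livers 1 to 5 of day 1, and 9.24, 9.25, 9.43, 9.20 and 9.35 in their controls. Every exposed liver was higher than every control, livers 1 and 4 being the highest and liver 5 the lowest. The difference was 1.40 ± 0.14 (SE), or 2.64-fold (limma adjusted p = 2.23e-11), and the second probe set of Nop56 also rose, by 1.26. After Cd the exposed livers 1, 2, 4 and 5 read 9.80, 9.46, 9.76 and 9.45 against 9.22 to 9.64 in controls, so the groups overlapped, and the difference of 0.25 ± 0.14 did not pass (limma adjusted p = 0.321). Its partner Nop58 gave 1.39 ± 0.14 after Cr (limma adjusted p = 1.38e-10) and 0.33 ± 0.15 after Cd (limma adjusted p = 0.179). Fbl (fibrillarin), the methyltransferase of the particle, rose after both metals. Its levels were 9.46, 9.12, 9.45 and 9.29 in Cd exposed livers and 8.70 to 8.89 in controls, with no overlap, and 10.09, 9.53, 9.99, 10.07 and 9.42 in Cr exposed livers against 8.68 to 9.01. The differences were 0.52 ± 0.10 after Cd (limma adjusted p = 0.000131), the largest of any member after that metal, and 1.00 ± 0.10 after Cr (limma adjusted p = 1.75e-11).

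The 4 core proteins of the box H/ACA particles, which carry out pseudouridylation, did not move as 1 block. Gar1, whose promoter stretch is printed above without an E-box, read 9.04, 8.52, 8.80, 9.20 and 8.41 in Cr exposed livers of day 1 and 7.14, 7.51, 7.38, 7.11 and 6.93 in controls. The lowest exposed liver was still above the highest control, and the difference of 1.58 ± 0.16, or 2.98-fold (limma adjusted p = 1.22e-10), was the largest of the 51 members. Nhp2 rose by 0.74 ± 0.10 (limma adjusted p = 2.05e-08) and Dkc1 (dyskerin), the pseudouridine synthase, by 0.59 ± 0.14 (limma adjusted p = 0.000757), with overlapping groups for Dkc1. Nop10, the smallest of the core proteins and the last of the stretches above, read 10.95, 11.06, 11.07, 11.18 and 11.12 against 10.91 to 11.04. Its exposed and control livers overlapped, and the difference of 0.12 ± 0.05 did not pass (limma adjusted p = 0.116), though it did with the pooled controls (0.11), with the controls of both metals (0.15) and after a further quantile normalization (0.16). None of the 4 passed the test after Cd, where the values ran from 0.00 for Nop10 to 0.44 for Gar1, 1 of them at an unadjusted p under 0.05.

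**Figure D2:**
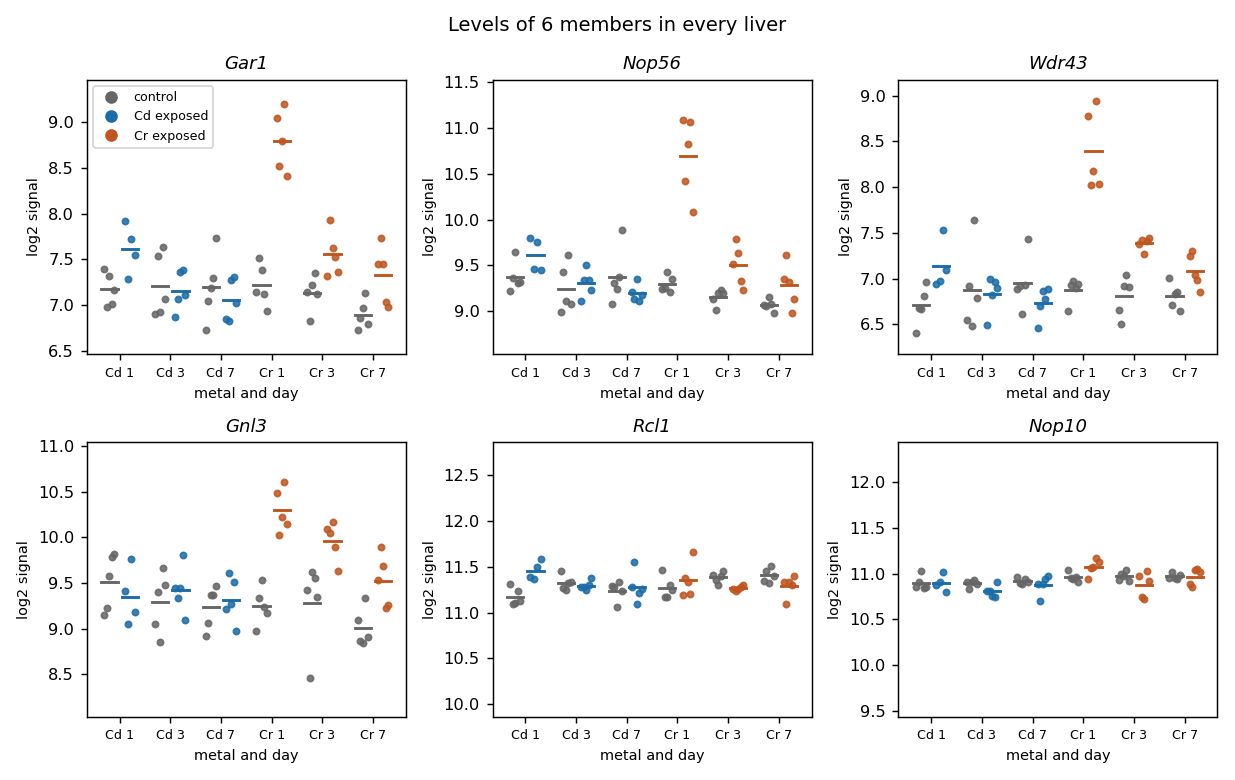
Log2 signal (y axis) of 6 members in every liver, by metal and day (x axis), with controls in grey, Cd exposed livers in blue, Cr exposed livers in orange and group means as bars. All panels span the same number of log2 units. Gar1, Nop56, Wdr43 and Gnl3 are high in all 5 Cr exposed livers of day 1, while Rcl1 and Nop10 overlap their controls there.

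Both nucleolar chaperones measured rose after Cr. Nolc1, which accompanies the small nucleolar particles, read 8.80, 8.28, 8.60, 8.73 and 7.98 in exposed livers and 6.88, 7.38, 7.58, 6.98 and 6.96 in controls. The control livers 2 and 3 lay highest in their group and still below every exposed liver. The difference was 1.32 ± 0.15 (limma adjusted p = 1.39e-09), and after Cd it was 0.51 ± 0.16 (limma adjusted p = 0.0261). The 4 probe sets of Nolc1 differed: the further 3 gave 0.69, 0.35 and -0.03 after Cr, of which the first and the second passed the test, and none of these 3 was called after Cd. Ncl (nucleolin), an abundant RNA-binding protein of the nucleolus, rose by 0.97 ± 0.10 after Cr (limma adjusted p = 2.07e-10). After Cd its 4 exposed livers, at 10.86 to 11.07, lay above the controls at 10.57 to 10.82, yet the difference of 0.25 ± 0.11 did not pass (limma adjusted p = 0.148). The nucleolar regulators rose after both metals. Ddx21, an RNA helicase, gave 0.51 ± 0.16 after Cd (limma adjusted p = 0.0199) and 1.05 ± 0.15 after Cr (limma adjusted p = 1.44e-07), while its second probe set gave 0.64 after Cr and 0.29 after Cd, where it did not pass (limma adjusted p = 0.0991). Mybbp1a gave 0.36 ± 0.11 (limma adjusted p = 0.0277) and 1.03 ± 0.11 (limma adjusted p = 1.69e-10). Its groups overlapped after Cd (8.46 to 8.64 against 7.95 to 8.51 in controls). With 1 liver left out, the Cd call was lost in 5 of 9 fits for Mybbp1a, 3 for Nolc1 and 2 for Ddx21.

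RNA polymerase I makes the long precursor of the ribosomal RNAs. Its subunits Polr1b, Polr1c and Polr1a rose after Cr by 0.97 ± 0.13, 0.70 ± 0.09 and 0.69 ± 0.11 (limma adjusted p of 3.09e-08, 5.07e-09 and 3.49e-06). Polr1b, the second largest subunit, read 7.94, 7.42, 7.77, 8.02 and 7.43 in exposed livers against 6.56, 6.87, 6.98, 6.57 and 6.75 in controls, without overlap, whereas the groups overlapped for Polr1a, the largest subunit. After Cd the same 3 gave 0.30, 0.06 and 0.14, and none passed the test. The 12 measured partners of these subunits were further subunits, initiation factors, Tcof1 and the termination factor Ttf1. Of these, 11 rose after Cr with a median of 0.60 (91.7%, against 21.8% of all genes). Ttf1 did not pass (0.13, limma adjusted p = 0.289). After Cd 2 of the 12 rose, with a median of 0.21. That is 16.7%, against 9.77% of all genes and 16.3% of the genes of higher signal, so the count is not read as a result. Taf1d, part of the promoter selectivity factor, rose by 1.45 ± 0.17 after Cr (limma adjusted p = 2.28e-09) and the subunit Polr1e by 1.23 ± 0.15 (limma adjusted p = 4.07e-09). The 2 that rose after Cd were the subunit Polr1f (0.32 ± 0.10, limma adjusted p = 0.0266) and the initiation factor Rrn3 (0.24 ± 0.08, limma adjusted p = 0.0372).

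Of the 20 factors of small subunit assembly, 19 rose after Cr with a median of 0.78, against 21.8% of all genes that rose. After Cd 7 of the 20 rose with a median of 0.29, against 9.77% of all genes. Among genes of higher signal, defined as above, 34.8% rose after Cr and 16.3% after Cd. Wdr43, a protein of the early processome, read 8.78, 8.03, 8.18, 8.95 and 8.04 in Cr exposed livers and 6.64, 6.93, 6.98, 6.90 and 6.94 in controls. The exposed livers 1 and 4 stood above the other 3, and all 5 stood above the controls. The difference was 1.52 ± 0.16, or 2.86-fold (limma adjusted p = 1.69e-10), and its second probe set gave 0.91. Tsr1, a factor of late small subunit maturation, rose by 1.22 ± 0.13 (limma adjusted p = 2.35e-10), and Heatr1, a further early processome protein, by 1.15 ± 0.13 (limma adjusted p = 1.66e-09). After Cd these 3 gave 0.43, 0.26 and 0.37 and did not pass the test (limma adjusted p of 0.0912, 0.259 and 0.0725). The 7 that rose after Cd were Pno1, Wdr75, Emg1, Imp3, Ltv1, Bysl and Rcl1, by 0.29 to 0.44. The second probe set of Wdr75 gave 0.21 after Cd and did not pass (limma adjusted p = 0.593), and of the 14 further probe sets of all members none was called after Cd and 13 were after Cr.

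Rcl1, a processome protein of the early cuts in the precursor, was the 1 member that passed the test after Cd and not after Cr. It read 11.39, 11.37, 11.50 and 11.58 in Cd exposed livers and 11.31, 11.09, 11.10, 11.24 and 11.12 in controls, with no overlap, a difference of 0.29 ± 0.08 (limma adjusted p = 0.00561). In Cr exposed livers it read 11.19, 11.38, 11.34, 11.20 and 11.66 against 11.46, 11.17, 11.17, 11.30 and 11.24, an overlapping pair of groups in which liver 5, where most members were at their lowest, was the highest. That difference was 0.08 ± 0.07 (limma adjusted p = 0.419). The difference between the metals, 0.20 with a 95% interval of -0.01 to 0.41, did not pass (limma adjusted p = 0.232), so that Rcl1 is not shown to differ between them.

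All 17 factors of large subunit assembly rose after Cr, with a median of 0.89, and 2 after Cd, Ebna1bp2 and Nop16, with a median of 0.16. Of the 17, Noc3l was dim, with a mean log2 signal of 4.10 over all arrays, the lowest of the 51 members. Its groups overlapped after Cr (4.18 to 4.87 against 3.97 to 4.29 in controls). The Cd count is 11.8% of this role, close to the 9.77% of all genes that rose. Ftsj3, a methyltransferase of pre-ribosomes, read 9.32, 8.76, 9.23, 9.47 and 8.18 in Cr exposed livers and 7.47 to 7.84 in controls. Its exposed livers were spread the most of all members (SD 0.524), with liver 5 the lowest but above every control, and the difference was 1.31 ± 0.14 (limma adjusted p = 2.06e-10). Ebna1bp2, an early assembly factor, rose by 1.26 ± 0.11 after Cr (limma adjusted p = 6.25e-13) and by 0.47 ± 0.11 after Cd (limma adjusted p = 0.00217), and Nop16 by 1.00 ± 0.10 (limma adjusted p = 4.33e-11) and 0.31 ± 0.11 (limma adjusted p = 0.0374). Pes1, Bop1 and Wdr12, which form 1 complex, rose together after Cr by 0.76, 0.97 and 1.01 and gave 0.16, 0.16 and 0.22 after Cd, where none passed.

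Gnl3 (nucleostemin), a GTP-binding protein of the nucleolus, and Rrs1, which brings the 5S particle into the large subunit, stood out between the metals. Gnl3 read 10.49, 10.03, 10.22, 10.61 and 10.14 in Cr exposed livers against 8.97, 9.33, 9.53, 9.23 and 9.17, with no overlap (1.05 ± 0.17, limma adjusted p = 3.63e-06). In Cd exposed livers it read 9.41, 9.05, 9.76 and 9.18, inside or just below the control range of 9.15 to 9.81 (-0.16 ± 0.18, limma adjusted p = 0.703). Rrs1 gave 0.87 ± 0.18 after Cr (limma adjusted p = 0.0001) and -0.26 ± 0.19 after Cd (limma adjusted p = 0.458).

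The difference between the metals was tested for each member as the Cd change minus the Cr change on day 1, both against their own controls. It passed in 40 of 51 members, and in all 40 the Cr change was the larger, against 10.9% of all genes with a lower value after Cd. The median difference was -0.60. The 5 largest among those past the test were Gnl3 (-1.21 ± 0.25, limma adjusted p = 0.000739), Nop56 (-1.15 ± 0.20, limma adjusted p = 5.26e-05), Gar1 (-1.13 ± 0.24, limma adjusted p = 0.000722), Rrs1 (-1.12 ± 0.26, limma adjusted p = 0.00173) and Wdr43 (-1.09 ± 0.23, limma adjusted p = 0.000894). Of the 11 members that did not pass, Imp3 had the narrowest gap among those that rose after both metals (0.37 after Cd, 0.47 after Cr), with an interval of the difference from -0.37 to 0.17. For Ddx21 the interval ran from -0.96 to -0.10. The doses of the metals differ in kind and amount, so these are differences between the exposures as given, and 29 of the 40 stood in every fit that left out 1 liver. Across the 51 members the day 1 values of the metals correlated at 0.503 (Pearson's r) and 0.585 (Spearman's rho), which describes genes measured on the same arrays and carries no test.

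The Cr exposed livers of day 1 did not rise to the same height. The mean level of the 51 members was 8.82, 8.41, 8.67, 8.89 and 8.27 in livers 1 to 5, against 7.68 to 7.89 in the 5 controls, so that each exposed liver was above every control. Liver 4 was the highest of its group in 35 members and liver 5 the lowest in 35. Liver 5 also stood nearest to the controls on the first principal component of all probe sets, at -18.0, with livers 1 and 4 farthest at -61.9 and -60.0 and the controls at 4.40 to 10.9. The median SD of a member in this group was 0.304, against 0.153 pooled over the control groups. The 3′ minus 5′ difference of the Gapdh probe sets, a sign of RNA quality, was 0.197, 0.823, 0.401, 0.137 and 0.167 in livers 1 to 5 and 0.394 to 0.851 in controls. Livers 1, 4 and 5 thus lay below every control, and among livers 4, 1, 3 and 2 the member mean was higher where this value was lower, while liver 5 had a low value and the lowest mean. The part of this sign in the result was not tested. Without liver 5 the median Cr change was 0.92, and without liver 1 it was 0.77. In the Cd exposed livers 1, 2, 4 and 5 the mean was 8.01, 7.85, 8.06 and 7.91 against 7.65 to 7.83 in controls, each just above every control, with liver 4 the highest in 28 members and liver 2 the lowest in 27.

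**Figure D3:**
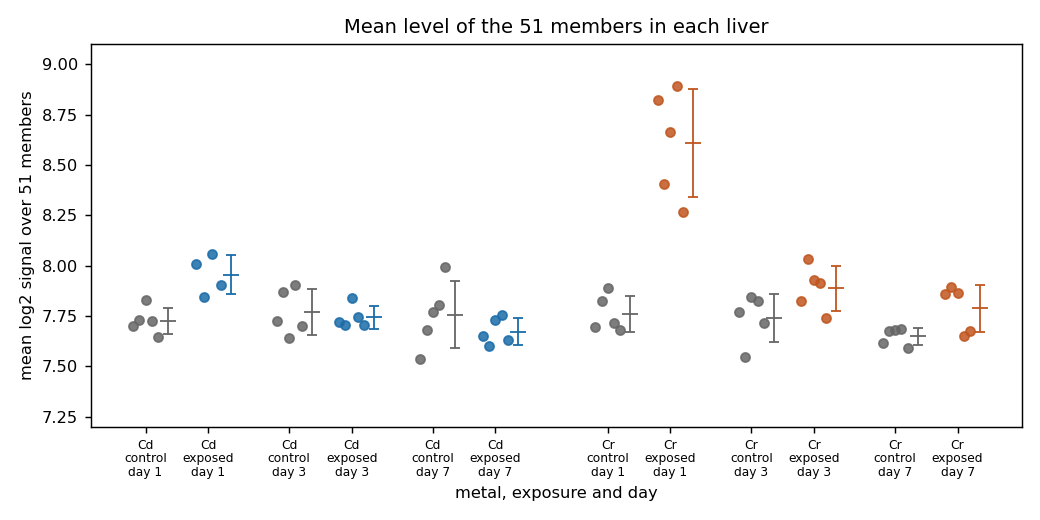
Mean log2 signal over the 51 members (y axis) in each of the 59 livers by group (x axis), with controls in grey, Cd in blue and Cr in orange, and the group mean ± SD drawn beside the points. The Cr exposed livers of day 1, between 8.27 and 8.89, lie above all other livers.

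By day 3 the rise after Cr had mostly gone. No member passed the test on day 3 or day 7 after either metal, with limma or with its unmoderated variance, against 0.0141% and 0.127% of all genes that rose on days 3 and 7 after Cr and 1.49% and 0.00703% after Cd. At an unadjusted p under 0.05, 11 members were higher on day 3 and 12 on day 7 after Cr, 0 on day 3 after Cd, and 1 was lower on day 7 after Cd. These counts are not read as a result, since the share of all genes at that cut-off is not given here. The change itself differed between days: the Cr day 1 change minus the day 3 change passed in 42 of 51 members, all larger on day 1, against 11.8% of all genes, with a median of 0.68. The largest were Ftsj3 (1.20 ± 0.20, limma adjusted p = 2.15e-05), Ebna1bp2 (1.19 ± 0.15, limma adjusted p = 3.82e-07) and Gar1 (1.16 ± 0.23, limma adjusted p = 0.000318), and 36 of the 42 stood in every fit that left out 1 liver. After Cd the same difference passed in 0 members with limma, against 3.81% of all genes, though 7 passed with pooled controls, and the median was 0.25.

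Some of the larger differences of day 3 after Cr are given here, and none passed the test against same-day controls. Gnl3 read 10.09, 10.04, 10.17, 9.89 and 9.63 in Cr exposed livers of day 3 and 9.43, 8.47, 9.62, 9.56 and 9.35 in controls, with exposed liver 5 barely above control liver 3. The difference was 0.68 ± 0.17 (limma adjusted p = 0.153), and it was 0.51 ± 0.17 on day 7 (limma adjusted p = 0.289). Wdr43 read 7.38, 7.43, 7.27, 7.42 and 7.44 on day 3 against 6.50 to 7.04, again without overlap (0.58 ± 0.16, limma adjusted p = 0.212), and Rrs1 gave 0.66 ± 0.18 (limma adjusted p = 0.180) with overlapping groups. Gnl3 and Rrs1 were among the 9 members whose day 1 and day 3 changes after Cr were not shown to differ (intervals from -0.12 to 0.86 and from -0.29 to 0.70). With the 15 pooled controls of the metal, the design of the study, Gnl3 (0.78), Rrs1 (0.72), Nip7 (0.53) and Wdr43 (0.56) passed the test on day 3. In all, 4 members lay wholly above their controls on day 3 (Gnl3, Nip7, Nob1 and Wdr43), against 1.2% of all genes, and 1 wholly below (Rcl1, 11.237 to 11.297 against 11.304 to 11.452), against 0.682% of all genes. On day 7 after Cr the 1 member wholly above its controls was Wdr12, against 1.76% of all genes, and after Cd there was none on day 3 or day 7, against 2.14% and 0.542%.

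**Figure D4:**
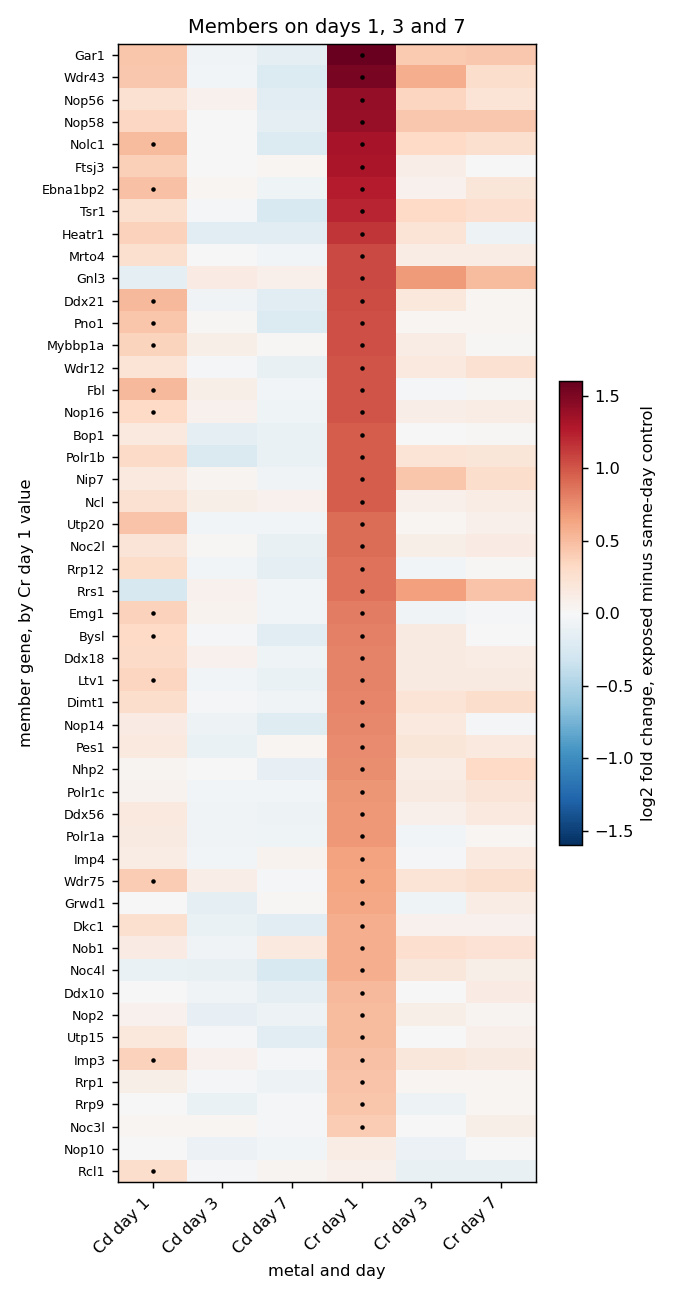
Log2 fold change of the 51 members against same-day controls (colour scale, red higher and blue lower in exposed livers) for each metal and day (x axis), ordered by the Cr day 1 value, with a dot where the test was passed. The column of Cr day 1 carries 49 dots, Cd day 1 carries 13, and the columns of days 3 and 7 carry none.

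The control livers bear on these values, since each day has its own. Between the controls of day 1 and those of days 3 and 7 together, 0 members differed for Cd by limma (3 at an unadjusted p under 0.05, and 0 with its unmoderated variance), where 0.921% of all genes were higher on day 1, and 1 differed for Cr. That one was Nhp2, at 9.43, 9.16, 9.16, 8.99 and 9.12 on day 1 against 8.34 to 8.86 on the later days, a difference of 0.48, against 1.02% of all genes that were higher in day 1 controls. The cycling cell markers were higher in the controls of day 1 (7.63 to 8.32 for Cd and 7.88 to 8.20 for Cr) than in those of day 3 (6.27 to 6.91 and 6.75 to 7.38). Against days 3 and 7 together, 8 of these 10 markers were higher in day 1 controls for Cd and all 10 for Cr.

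Other genes of the same process were read from a list of their own. Of 108 other measured genes of ribosome biogenesis, 97 rose and 0 fell after Cr, with a median of 0.61, or 89.8% of the list against 21.8% of all genes that rose. After Cd 6 rose and 0 fell, with a median of 0.15, or 5.56% of the list, which is below the 9.77% of all genes that rose. After Cr the largest of these rises were those of Rpp38 (1.38 ± 0.25, limma adjusted p = 1.39e-05), a subunit of RNase MRP and RNase P, Nol8 (1.32 ± 0.20, limma adjusted p = 4.52e-07), Sdad1 (1.32 ± 0.15, limma adjusted p = 1.54e-09) and the GTPase Gtpbp4 (1.29 ± 0.16, limma adjusted p = 5.58e-09). After Cd they were Shq1 (0.64 ± 0.14, limma adjusted p = 0.000644), which chaperones dyskerin, Exosc1 of the RNA exosome (0.41 ± 0.10, limma adjusted p = 0.00167), Eif6, which keeps the subunits apart (0.39 ± 0.12, limma adjusted p = 0.0157), and Esf1 (0.33 ± 0.11, limma adjusted p = 0.0339). Of 42 cytosolic ribosomal proteins measured of 79 listed, 39 rose after Cr with a median of 0.44 (92.9%, against the same 21.8%), and 23 after Cd with a median of 0.19 (54.8%, against 9.77%), and 0 fell after either.

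Myc, whose E-box was searched in the promoters above, read 8.94, 7.77, 8.42, 8.57 and 7.47 in Cr exposed livers of day 1 and 7.11, 8.38, 6.89, 7.34 and 6.39 in controls. Livers 1, 3 and 4 were above every control and livers 2 and 5 below control liver 2, and the difference was 1.01 ± 0.36 (limma adjusted p = 0.0304). After Cd on day 1 Myc gave -0.08 ± 0.38 (limma adjusted p = 0.948). The Cd change minus the Cr change was -1.09 ± 0.53 and did not pass (limma adjusted p = 0.198), so that Myc is not shown to differ between the metals. On day 3 after Cd it read 8.20, 8.56, 7.66, 8.14 and 7.53 against 6.01 to 6.95, with no overlap (1.46 ± 0.36, limma adjusted p = 0.0259), while 0 of the 51 members passed in that comparison and their values ran from -0.23 to 0.13. The Cd controls of day 3 had the lowest Myc mean of the 6 control groups, 6.56 against 7.10 to 7.89 in the others. On day 7 Myc gave 0.92 ± 0.36 after Cd (limma adjusted p = 0.630) and -0.98 ± 0.36 after Cr (limma adjusted p = 0.362), and neither passed. Of the 11 genes of the MYC and MAX network, Mnt rose with Myc after Cr on day 1 (0.46), Mycl and Mxi1 fell (-0.47 and -0.45), and after Cd Mxd1 and Max rose (0.39 and 0.31) and Mxi1 fell (-0.39).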

How the data were processed

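RNA of 59 livers was labelled with a 3′ IVT kit and hybridised to 1 array each. The authors normalized the probe signals by RMA in Partek Genomic Suite and deposited log2 values, 31042 probe sets beside 57 controls left out here. RMA compresses changes of dim probe sets, and the number of arrays limits the precision. The study left out a Cd exposed liver of day 1 that had not accumulated Cd. No array batch is given in the sources used here.

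Probe sets were named from GEO's platform annotation (20826 with 1 symbol, 436 with several, 9780 with none), and a gene was read on its brightest probe set with 1 symbol. One limma fit (version 3.58.1, R 4.3.3) of 12 groups, with 47 residual degrees of freedom, gave all contrasts, adjusted over all probe sets. Its p-values measure the spread between livers. Counts at an unadjusted p are given without the share of all genes at that cut-off. The members and gene lists were chosen with earlier results of these data known. Named with values were up to 3 members per role with the largest mean day 1 change, the 5 largest differences between metals, members not called after Cr, up to 4 genes of the other ribosome biogenesis, RNA polymerase I and MYC lists per metal, and Myc. Other names were chosen after their values were seen. On simulated data, with 50 probe sets changed at each fold, the fit recovered 24% of 1.25-fold and 92% of 1.5-fold changes for Cd on day 1. For Cr it recovered 36% and 86%. The main fit took no pairs, and 1 alternative fit took the replicate number as a block in all 6 comparisons. Pairs of exposed and control livers with the same number were checked by correlating their deviations from the group means. Every pair correlated above 0.1 in 1 of 6 comparisons (Cd day 1, 4 pairs at 0.135 to 0.204). Over all 29 pairs the mean correlation was 0.122, and it was -0.03 between other numbers. Deviations from a group mean cancel out within the group, so the second value follows from the first and is no separate baseline. Alternatives changed the controls, normalization, variance model, weights, filter, probe set, threshold, block and livers.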

Additional observations from a re-analysis of the deposited data

Results flagged for a closer look

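In 6 of the 288 groups of livers examined (23 named members and the median over all 51, each in 12 groups), 1 liver stood apart from the rest of its group by Dixon's test, where chance gives about 1 in 20. Dkc1 was 7.64 in the lowest Cr exposed liver of day 1 against a group median of 8.45, and 7.82 in the highest Cr control of day 7 against 7.45. Polr1c was 8.21 in the highest Cr exposed liver of day 3 against 7.94. Wdr43 was 6.64 in the lowest Cr control of day 1 against 6.93, Ebna1bp2 was 8.22 in the lowest Cd control of day 1 against 8.46, and Gnl3 was 8.47 in the lowest Cr control of day 3 against 9.43.

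The change of day 1 differed between the metals, by the test of the difference itself, in 19 of the named members. The Cd change minus the Cr change (log2) was Nop58 -1.06, Nop56 -1.15, Fbl -0.48, Gar1 -1.13, Nhp2 -0.70, Nolc1 -0.81, Ncl -0.72, Polr1b -0.67, Polr1a -0.55, Polr1c -0.64, Wdr43 -1.09, Heatr1 -0.77, Tsr1 -0.96, Ebna1bp2 -0.79, Ftsj3 -0.93, Nop16 -0.69, Mybbp1a -0.67, Gnl3 -1.21 and Rrs1 -1.12.

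The Cr change differed between day 1 and day 3, tested in the same way, in 18 of the named members. The day 1 change minus the day 3 change (log2) was Nop58 0.96, Nop56 1.06, Fbl 1.03, Gar1 1.16, Nhp2 0.62, Nolc1 1.00, Ncl 0.88, Polr1b 0.75, Polr1a 0.74, Polr1c 0.56, Wdr43 0.94, Heatr1 0.93, Tsr1 0.90, Ebna1bp2 1.19, Ftsj3 1.20, Nop16 0.89, Ddx21 0.87 and Mybbp1a 0.91.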

How the results depend on the processing

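The counts of called members on day 1 stayed within 1.5 times their value under every alternative run, apart from the 1.8-fold threshold and, for Cd, livers left out. With that threshold they were 25 after Cr, 0 after Cd, 8 for the difference between metals, 21 for Cr day 1 minus day 3 and 0 for the Cr controls. Leaving out 1 liver gave 4 (without exposed liver 4) to 14 for Cd day 1, 8 without exposed liver 1, and 0 to 3 for Cd day 1 minus day 3, the 3 without exposed liver 2. For Cr day 3 the pooled controls gave 4 calls and the controls of both metals 3, and array weights gave 1 for Cr day 7 (Nhp2). For Cd day 1 minus day 3, 7 were called with pooled controls, 4 with the signal filter, 3 each with the controls of both metals, array weights and quantile normalization, and 1 each with each metal alone, ordinary variance and centred arrays. Rcl1 after Cr on day 1, not called, turned to -0.0002 with pooled controls. Of the values of single named members, 1300 kept their direction and side of the threshold with 1 liver left out, 14 newly passed and 20 no longer did, and under the other settings 883 did, with 28 and 27. The causes were not tested. The simulation recovered few changes of 1.25-fold. It changed 50 probe sets at each fold, whereas 1389 genes rose after Cd on day 1. With fewer changes the adjusted threshold is stricter, so the simulation does not give the limit of these arrays for small Cd changes.

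With the replicate number as a block, 14 members were called for Cd day 1, 49 for Cr day 1, 37 for the difference between metals, 44 for Cr day 1 minus day 3 and 1 for Cd day 1 minus day 3. The block changed no call of a member for Cr day 1. For the difference between metals Rrp1, Nob1, Ddx18 and Ddx10 were lost and Emg1 gained, for Cr day 1 minus day 3 Dkc1 and Noc4l were gained, and for Cd day 1 minus day 3 Dkc1 was gained. Of 29 exposed livers, 19 correlated best with the control of their own number, all 4 of Cd day 1 among them, a hint from the data and not from the design.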

Other observations

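On day 7 the cytosolic ribosomal proteins, the finished parts that the assembly factors put together, had small positive differences after both metals. Of 42 measured, 41 were above 0 after Cd (median 0.12) and 40 after Cr (median 0.15), and 22 and 28 had an unadjusted p under 0.05, all higher. None passed the limma test across all probe sets, and the 51 assembly genes had medians of -0.07 and 0.12 there. The shares of all genes above 0 and at that unadjusted cut-off are not given here. The counts of ribosomal proteins are therefore not read as a rise.

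Markers of the other cell types of the liver were read in the same fit on day 1. Of 9 hepatocyte markers 1 rose and 2 fell after Cd, and 1 rose and 1 fell after Cr. Of 6 endothelial markers 3 rose after Cd and 1 after Cr, of 10 stellate cell and fibroblast markers 2 and 3 rose, and of 9 lymphocyte markers 1 and 0 rose (4 at an unadjusted p under 0.05 after each metal). Of 6 bile duct markers 1 fell after Cd and 2 rose after Cr. Over all genes, 9.77% rose and 8.14% fell after Cd, and 21.8% rose and 12.9% fell after Cr. The lists are short, some counts are near those shares, and none is read as a result. The share of all genes at the unadjusted cut-off is not given here. The part of these markers in the results was not tested.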
